A study of Mus musculus with 12 samples.

Results

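The 10 genes described here belong to the Hippo, or YAP/TAZ, signalling pathway and were chosen by symbol from the 46731 genes of the expression table. They comprise the coactivators *Yap1* and *Wwtr1* (which encodes TAZ), their DNA-binding partners *Tead1* and *Tead2*, the inhibitory kinases *Lats1* and *Lats2*, the inhibitory scaffold *Amotl2*, and the target genes *Ccn1* (also known as Cyr61), *Ccn2* (also known as Ctgf) and *Ankrd1*. RNA was sequenced from ATDC5 cells, a mouse teratocarcinoma line used as a model of chondrocytes, in 12 libraries. The 4 groups of 3 libraries each were cells stably expressing the control construct shRNA-NC or the construct shRNA-*Ddx5*, which targets the RNA helicase gene *Ddx5*, either unstimulated in medium or stimulated for 6 h with 5 ng/ml IL-1β plus 25 ng/ml TNF-α, called cytokines below. Both lines carry an integrated lentiviral cassette, so that the hairpin and the line that carries it cannot be told apart. Values are FPKM, fragments scaled by gene length and by library size, which can be compared between genes because they are divided by gene length.

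In the Hippo pathway, the kinases STK3 and STK4 activate LATS1 and LATS2, which phosphorylate YAP and TAZ and keep them out of the nucleus. When the kinases are quiet, YAP and TAZ enter the nucleus, bind TEAD factors and switch on genes such as *Ccn1*, *Ccn2* and *Ankrd1*, together with the feedback inhibitors *Lats2* and *Amotl2*. In cartilage cells the pathway responds to cell shape and matrix stiffness, and CCN2 is a secreted matrix protein with known functions in cartilage and in fibrosis. Nuclear localization and phosphorylation, by which the pathway is mainly controlled, are not seen in RNA levels.

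Each library held 14119199 to 19276520 fragments on genes, and each of the 10 genes held between 69 and 10140 fragments in every library, so that all 10 passed the filter for testing. *Ddx5* itself fell in shRNA-*Ddx5* cells to 32.3% of the control in medium and to 32.1% with cytokines. Of 10 chondrocyte markers only 4 reached 1 FPKM in at least 3 libraries, and *Acan*, *Comp*, *Matn1* and *Matn3* were below this level, whereas *Sox9* averaged 27.5 FPKM in shRNA-NC cells in medium. The summed FPKM of the 10 chondrocyte markers in medium ranged from 40.1 to 45.2 in shRNA-NC and from 31.5 to 34.2 in shRNA-*Ddx5* cells, and under cytokines from 13.1 to 18.3 and from 10.5 to 10.7. Single markers went opposite ways, since in medium *Col2a1* averaged 12.4 FPKM in shRNA-NC and 0.899 in shRNA-*Ddx5* cells, and *Col11a1* 0.897 and 4.78. The sum over 8 fibroblast markers moved with the knockdown, from 549 to 567 FPKM in shRNA-NC and from 2115 to 2202 in shRNA-*Ddx5* cells in medium, and from 258 to 426 and from 1602 to 1839 with cytokines. *Col1a2* made up most of it, averaging 499 and 1738 FPKM in medium. Of 6 tested markers, 5 rose past the threshold given below in medium and 6 with cytokines, where 25.3% and 23.5% of all tested genes rose. *Pdgfra* averaged 0.644 and 0.578 FPKM in medium, and *Thy1* and *Lum* were below the filter. The part of the fibroblast markers in the differences below was not tested, and in bulk RNA fewer cells of a type and less RNA per cell cannot be told apart. Markers of leukocytes, endothelium, epithelium and muscle each summed to at most 2.36 FPKM in any library, with *Ptprc*, *Cd3e*, *Cdh5*, *Epcam*, *Myod1* and *Myog* at 0 throughout.

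TEAD factors bind the short sequence GGAATG, and promoter sequences are shown here because 6 of the 8 genes with a promoter in the RefSeq table (GRCm38.p6) held it, on either strand, in the window from 250 bases before to 50 bases after the start. It was found in *Wwtr1*, *Ccn1*, *Yap1*, *Amotl2*, *Lats2* and *Ankrd1*, and not in *Tead2* or *Lats1*. *Wwtr1* and *Lats2* had 2 promoter entries each, and 7 of the 10 entries of the 8 genes held it. The same letters were in 14.7% of all 32851 promoters of the table and in 11.9% of the 11298 promoters of genes tested here. The genes were chosen as known members of the pathway, and a match is no proof of a binding site. *Ankrd1* was the gene with 2 matches in the same entry, at bases -210 to -205 and -123 to -118 from the start. In *Ccn1* the match lay on the opposite strand, at -103 to -98, in *Amotl2* on the opposite strand at -65 to -60, in *Yap1* at -141 to -136 and in *Wwtr1* at -136 to -131. In the *Lats2* entry that held it, the match lay after the start, at bases 5 to 10. The 2 *Wwtr1* entries overlap, and the other one held the same genomic match, at -170 to -165 from its own start. This match is thus counted 2 times among the 7 entries. The 250 bases before the start of these promoters, without *Lats2* and the other *Wwtr1* entry, read as follows. They run 5′ to 3′ on the strand of the gene, with GGAATG or its reverse complement in capitals.
Ankrd1 (chr19:36119845-36120094, minus strand): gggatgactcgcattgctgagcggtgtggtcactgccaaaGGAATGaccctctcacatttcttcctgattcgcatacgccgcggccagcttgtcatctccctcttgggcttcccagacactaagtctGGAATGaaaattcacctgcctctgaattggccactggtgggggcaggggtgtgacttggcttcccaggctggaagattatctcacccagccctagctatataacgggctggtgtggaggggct
Ccn1 (chr3:145649986-145650235, minus strand): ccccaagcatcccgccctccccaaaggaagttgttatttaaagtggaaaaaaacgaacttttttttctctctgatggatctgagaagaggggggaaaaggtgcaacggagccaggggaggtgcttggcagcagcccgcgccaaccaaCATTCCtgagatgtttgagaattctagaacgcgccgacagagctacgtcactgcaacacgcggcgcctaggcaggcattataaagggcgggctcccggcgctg
Amotl2 (chr9:102717554-102717803, plus strand): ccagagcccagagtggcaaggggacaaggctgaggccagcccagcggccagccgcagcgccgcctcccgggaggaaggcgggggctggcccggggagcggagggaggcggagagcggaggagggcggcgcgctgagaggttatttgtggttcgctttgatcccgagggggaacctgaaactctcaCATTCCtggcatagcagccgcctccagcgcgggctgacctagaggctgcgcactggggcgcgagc
Yap1 (chr9:8004597-8004846, minus strand): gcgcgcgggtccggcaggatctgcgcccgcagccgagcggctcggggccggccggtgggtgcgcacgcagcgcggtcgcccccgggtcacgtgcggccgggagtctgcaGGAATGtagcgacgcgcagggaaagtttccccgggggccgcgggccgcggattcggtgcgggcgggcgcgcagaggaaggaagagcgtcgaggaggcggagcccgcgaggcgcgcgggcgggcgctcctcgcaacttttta
Wwtr1 (chr3:57575911-57576160, minus strand): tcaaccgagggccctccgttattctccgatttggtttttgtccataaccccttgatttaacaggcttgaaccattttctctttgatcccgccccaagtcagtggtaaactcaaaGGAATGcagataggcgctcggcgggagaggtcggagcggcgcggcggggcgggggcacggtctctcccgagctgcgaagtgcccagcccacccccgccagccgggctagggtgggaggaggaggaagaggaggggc

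Other motifs were searched on both strands of the same windows. Shares are given for all promoters and then for those of tested genes. The AP-1 sequence TGANTCA (7.81% and 4.97%) and the CArG box of serum response factor (1.63% and 1.23%) were in none of the 8 genes. An NF-κB motif (8.46% and 10.5%) was in *Lats2* alone. A G-quadruplex pattern, 4 runs of at least 3 guanines with 1 to 7 bases between them, was in *Ccn1* and *Tead2* (18.6% and 27.7%). The G-quadruplex was searched because DDX5 is studied as a helicase that unwinds it.

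Expression was compared as log2(FPKM + 1) in a single limma fit over 12368 genes and all 12 libraries, with Benjamini-Hochberg adjustment over all of these genes and a threshold of 0.05. Differences on this scale are smaller than log2 ratios of FPKM for genes of low level, such as *Ankrd1* and *Ccn2*. After the knockdown in medium 2 of the 10 genes rose and 3 fell, where 47.0% of all tested genes were called, 25.3% upward and 21.7% downward. With cytokines present 2 rose and 6 fell, where 45.6% of all genes were called, 23.5% upward and 22.1% downward. The 2 groups did not overlap for 6 of the 10 genes in medium and for 9 with cytokines, beside 53.5% and 61.6% of all tested genes. Their median difference was 0.09 in medium, beside 0.03 over all tested genes, and -0.63 with cytokines, beside 0.01 over all tested genes. The cytokines raised 6 of the 10 genes in shRNA-NC cells and lowered none at this threshold, where 33.8% of all genes were called, 18.6% upward and 15.2% downward. They raised 4 and lowered none in shRNA-*Ddx5* cells, where 27.0% of all genes were called, 13.5% in each direction. Groups with and without cytokines did not overlap for 7 of the 10 genes in shRNA-NC and for 5 in shRNA-*Ddx5* cells, beside 45.7% and 47.3% of all tested genes. The interaction, the test of whether the knockdown difference changed with cytokines, was above 0 for 1 and below 0 for 2 of the 10 genes, where 8.21% of all genes were called, 3.46% above and 4.75% below 0. These comparisons share libraries and are not independent of each other.

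**Figure D1:**
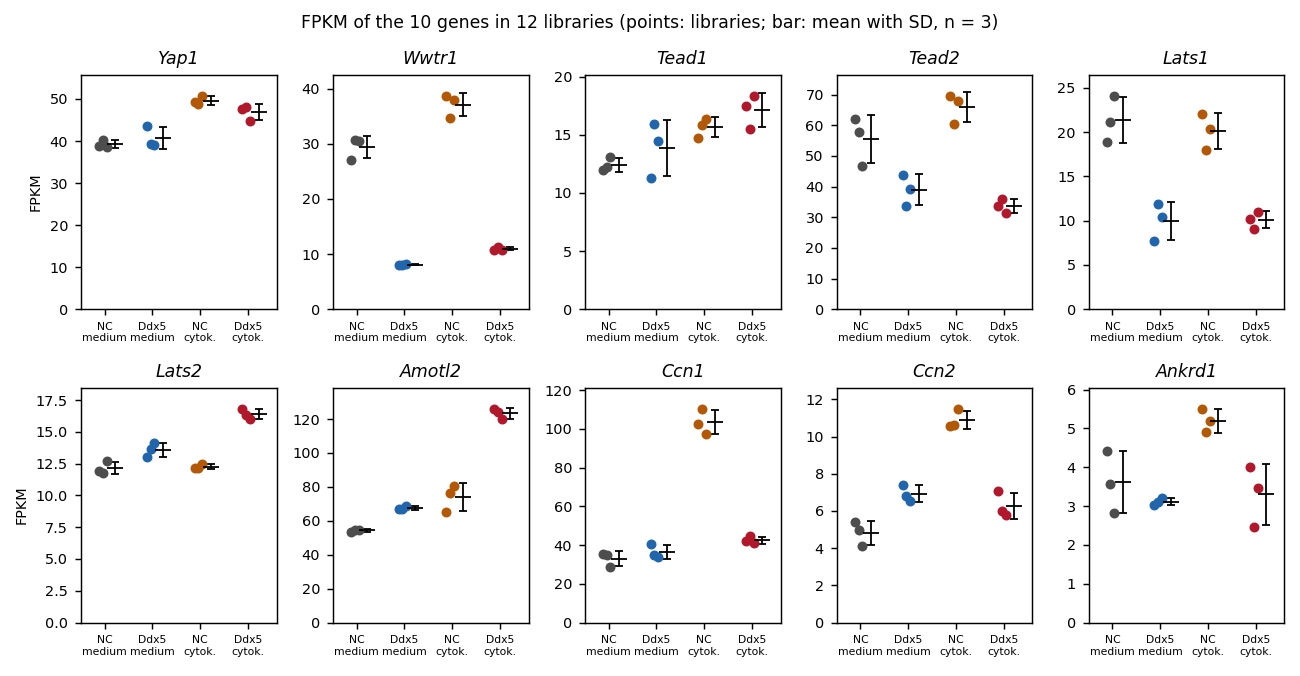
FPKM (vertical axes, from 0) of the 10 genes in each of 12 libraries, by hairpin and medium on the horizontal axis. Points are libraries and bars show the mean with SD (n = 3). Ccn1 and Ccn2 stand out in shRNA-NC cells with cytokines, at 97.5 to 110 and 10.6 to 11.5 FPKM, above all libraries of the other 3 groups, and Wwtr1 is low in all 6 shRNA-Ddx5 libraries.

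Of the 2 coactivators, *Wwtr1* fell strongly with the knockdown and *Yap1* did not pass the test. *Wwtr1* (gene 97064, GRCm39 chromosome 3, 57363065 to 57483331, minus strand) was at 27.1, 30.6 and 30.6 FPKM in shRNA-NC and at 7.96, 8.02 and 8.22 in shRNA-*Ddx5* cells in medium. When cytokines were added, *Wwtr1* was at 38.7, 34.7 and 37.9 FPKM in shRNA-NC and at 10.7, 11.3 and 10.8 in shRNA-*Ddx5* cells. All 6 shRNA-*Ddx5* libraries lay below all 6 control libraries. The gene was thus at 27.4% of the control in medium (log2 difference -1.74, SE 0.07, limma adjusted p = 6.2e-08) and at 29.5% with cytokines (-1.67, SE 0.07, adjusted p = 8.0e-08). The 2 differences did not differ detectably (interaction 0.07, 95% interval -0.15 to 0.30, adjusted p = 0.718 by limma). The cytokines raised *Wwtr1* in both lines, 1.26-fold in shRNA-NC (log2 difference 0.32, SE 0.07, adjusted p = 0.0053 by limma) and 1.36-fold in shRNA-*Ddx5* cells (0.40, SE 0.07, adjusted p = 0.0018).

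*Yap1* (gene 22601, chromosome 9, 7932000 to 8004890, minus strand) was at 38.8, 40.3 and 38.6 FPKM in shRNA-NC and at 43.6, 39.3 and 39.1 in shRNA-*Ddx5* cells in medium, where the groups overlapped. With cytokines present, *Yap1* was at 49.3, 48.9 and 50.7 FPKM in shRNA-NC and at 47.6, 48.2 and 44.7 in shRNA-*Ddx5* cells. Here the groups did not overlap, but the difference was small. The knockdown difference of *Yap1* was 0.05 in medium (95% interval -0.10 to 0.20, adjusted p = 0.583 by limma) and -0.08 with cytokines (95% interval -0.23 to 0.07, adjusted p = 0.348). After quantile normalization the latter was -0.20 and passed the threshold (adjusted p = 0.0204 by limma). The cytokines raised *Yap1* 1.26-fold in shRNA-NC cells (log2 difference 0.33, SE 0.07, adjusted p = 0.0033 by limma). The 1.15-fold higher level in shRNA-*Ddx5* cells passed only narrowly (0.20, SE 0.07, adjusted p = 0.0480 by limma). That call was lost in 9 of 12 fits that each left out 1 library (adjusted p up to 0.169), and was kept without replicate 3 of shRNA-NC in medium, replicate 1 of shRNA-*Ddx5* in medium or replicate 1 of shRNA-NC with cytokines. The shRNA-NC libraries lie outside this comparison and enter it only through the spread shared by all groups. With all libraries kept, the call was lost after quantile normalization and with the replicate number as a block (adjusted p = 0.289 and 0.0846 by limma). The same held in a fit of the compared groups alone and in a voom fit (adjusted p = 0.0717 and 0.112 by limma). In all, 13 of 18 alternatives lost it.

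Since *Wwtr1* fell strongly and *Yap1* changed little, the proportion of the 2 coactivator transcripts shifted. In medium, *Wwtr1* made up 42.8% ± 1.56 (SD, n = 3) of the summed FPKM of both genes in the control libraries, against 16.6% ± 1.03 (SD, n = 3) after the knockdown. In the presence of cytokines its share was 42.7% ± 1.22 (SD, n = 3) in the control, against 18.9% ± 0.550 (SD, n = 3) after the knockdown. The summed level was 68.7 FPKM in shRNA-NC and 48.7 in shRNA-*Ddx5* cells in medium, and 86.7 and 57.8 FPKM with cytokines. In neither medium did the groups overlap, in share or in sum (exact two-sided permutation p = 0.1, the smallest that 3 libraries against 3 allow). Cytokines left the share in shRNA-NC cells almost where it was (difference -0.09 percentage points, exact permutation p = 0.9).

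**Figure D2:**
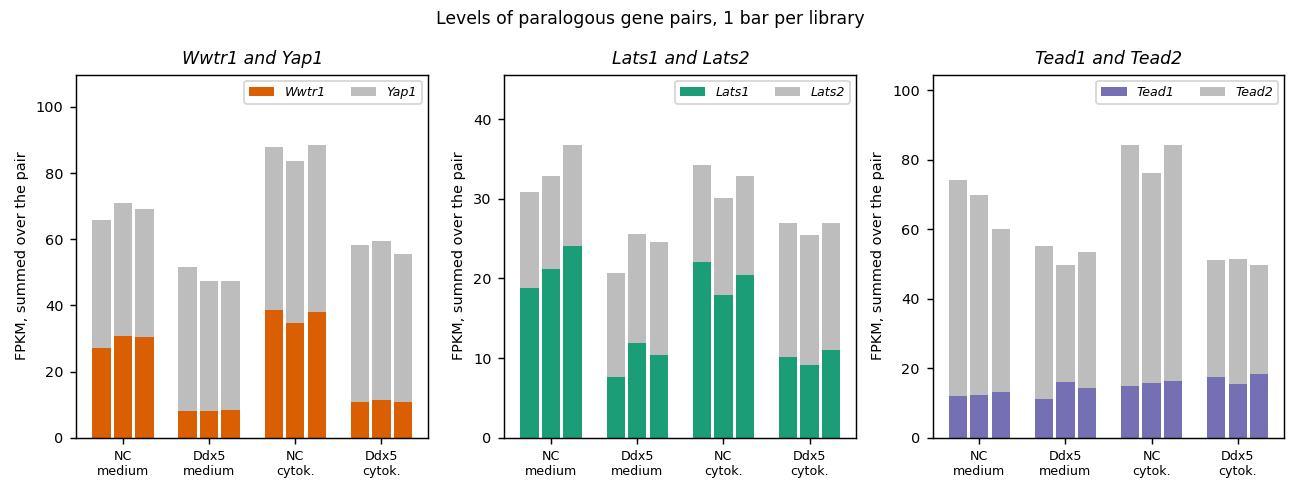
Stacked FPKM (vertical axes, from 0) of Wwtr1 with Yap1, Lats1 with Lats2 and Tead1 with Tead2, with 1 bar per library and 3 bars per group. In shRNA-Ddx5 libraries the coloured Wwtr1 and Lats1 parts shrink. The grey Lats2 part does not, and the grey Yap1 part is slightly lower with cytokines only. In the Tead pair the grey Tead2 part shrinks.

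Among the DNA-binding partners, *Tead2* fell with the knockdown and *Tead1* did not pass the test. *Tead2* (gene 21677, chromosome 7, 44865216 to 44882892, plus strand) was at 62.1, 57.8 and 46.9 FPKM in shRNA-NC and at 43.9, 33.7 and 39.1 in shRNA-*Ddx5* cells in medium. Under cytokines, *Tead2* was at 69.6, 60.4 and 68.0 FPKM in shRNA-NC and at 33.7, 36.1 and 31.5 in shRNA-*Ddx5* cells. The groups were apart in both media, with a wider gap when cytokines were present. *Tead2* was at 70.0% of the control in medium (log2 difference -0.50, SE 0.12, adjusted p = 0.0057 by limma) and at 51.1% with cytokines (-0.95, SE 0.12, adjusted p = 9.6e-05), but the interaction did not pass (-0.45, SE 0.17, adjusted p = 0.143 by limma). The cytokines did not change *Tead2* detectably in either line (differences 0.25 and -0.19, adjusted p = 0.134 and 0.267 by limma).

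*Tead1* (gene 21676, chromosome 7, 112278563 to 112505991, plus strand) was at 11.995, 12.2 and 13.1 FPKM in shRNA-NC and at 11.3, 16.0 and 14.4 in shRNA-*Ddx5* cells in medium. Under cytokines, *Tead1* was at 14.8, 15.9 and 16.4 FPKM in shRNA-NC and at 17.5, 15.5 and 18.4 in shRNA-*Ddx5* cells. The lines overlapped in both media, and the knockdown difference was 0.14 in medium (95% interval -0.11 to 0.38, adjusted p = 0.348 by limma) and 0.12 with cytokines (95% interval -0.13 to 0.37, adjusted p = 0.421). Without replicate 1 of shRNA-*Ddx5* in medium, the lowest of that group, the difference in medium was 0.27 and passed (adjusted p = 0.0352 by limma). The cytokine differences of *Tead1*, 0.31 in shRNA-NC and 0.29 in shRNA-*Ddx5* cells, came close to the threshold (adjusted p = 0.0530 and 0.0764 by limma). The former passed in a fit of the compared groups alone (adjusted p = 0.0372 by limma). It also passed without replicate 1 or replicate 2 of shRNA-*Ddx5* in medium (adjusted p = 0.0130 and 0.0337 by limma). These libraries lie outside that comparison, so that the difference stayed at 0.31 and only the spread shared by all groups changed. The latter passed without replicate 2 of shRNA-*Ddx5* in medium (0.39, adjusted p = 0.0291 by limma). The share of *Tead1* in the summed *Tead1* and *Tead2* level in medium was 18.5% ± 2.96 (SD, n = 3) in the control, against 26.5% ± 5.86 (SD, n = 3) after the knockdown, with overlapping groups (exact permutation p = 0.2). In the presence of cytokines the share was 19.2% ± 1.66 (SD, n = 3), against 33.7% ± 3.40 (SD, n = 3) after the knockdown, and the groups were apart (exact permutation p = 0.1).

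Of the 2 inhibitory kinases, *Lats1* fell with the knockdown in both media, whereas *Lats2* rose with cytokines present and did not pass in medium. *Lats1* (gene 16798, chromosome 10, 7556964 to 7592225, plus strand) was at 18.8, 21.1 and 24.1 FPKM in shRNA-NC and at 7.68, 11.9 and 10.4 in shRNA-*Ddx5* cells in medium. In the stimulated cells, *Lats1* was at 22.0, 18.0 and 20.4 FPKM in shRNA-NC and at 10.2, 9.08 and 11.02 in shRNA-*Ddx5* cells. All shRNA-*Ddx5* libraries lay below all control libraries. *Lats1* was thus at 46.8% of the control in medium (log2 difference -1.04, SE 0.14, adjusted p = 1.8e-04 by limma) and at 50.1% with cytokines (-0.93, SE 0.14, adjusted p = 3.7e-04). The cytokine differences were close to 0, at -0.08 (95% interval -0.40 to 0.24) in shRNA-NC and 0.03 (95% interval -0.29 to 0.35) in shRNA-*Ddx5* cells. *Lats1* shares 138 bases with *Pcmt1* on the opposite strand, and it is not stated whether strand was used in counting, so that fragments in this stretch cannot be told apart. *Pcmt1* averaged 16.5 FPKM in shRNA-NC and 19.7 in shRNA-*Ddx5* cells in medium, and 20.1 and 19.6 FPKM with cytokines.

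*Lats2* (gene 50523, chromosome 14, 57927119 to 57983669, minus strand), both a kinase of the pathway and a target of YAP and TAZ, was at 11.95, 11.8 and 12.7 FPKM in shRNA-NC and at 13.04, 13.6 and 14.1 in shRNA-*Ddx5* cells in medium. In the stimulated cells, *Lats2* was at 12.2, 12.1 and 12.5 FPKM in shRNA-NC and at 16.8, 16.4 and 16.0 in shRNA-*Ddx5* cells. The groups did not overlap in either medium, with a narrow gap in medium and a wider gap with cytokines. *Lats2* rose 1.34-fold with the knockdown when cytokines were present (log2 difference 0.39, SE 0.06, adjusted p = 4.9e-04 by limma), whereas the difference of 0.15 in medium missed the threshold (SE 0.06, adjusted p = 0.0708). That difference passed without replicate 3 of shRNA-NC in medium (0.18, adjusted p = 0.0487 by limma). It also passed with all libraries kept and no filter on low values (0.15, adjusted p = 0.0411 by limma). The cytokines raised *Lats2* to 120.4% of its level in medium in shRNA-*Ddx5* cells (0.25, SE 0.06, adjusted p = 0.0128 by limma). This call was lost without replicate 1 of shRNA-*Ddx5* with cytokines and after quantile normalization (adjusted p = 0.0588 and 0.0516 by limma). In shRNA-NC cells the cytokine difference of *Lats2* was 0.01 (95% interval -0.13 to 0.15, adjusted p = 0.906 by limma). The interaction did not pass (0.24, adjusted p = 0.132 by limma). *Lats1* held 63.6% of the summed *Lats1* and *Lats2* level in shRNA-NC and 42.0% in shRNA-*Ddx5* cells in medium, and 62.1% and 38.1% with cytokines. *Lats1* was therefore the more abundant kinase transcript in every control library and *Lats2* in every shRNA-*Ddx5* library.

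*Amotl2* (gene 56332, chromosome 9, 102594290 to 102610616, plus strand), an angiomotin family scaffold that binds YAP and holds it outside the nucleus, was at its highest where both the hairpin and the cytokines were present. It was at 53.4, 54.8 and 54.7 FPKM in shRNA-NC and at 66.7, 66.8 and 69.0 in shRNA-*Ddx5* cells in medium. After stimulation, *Amotl2* was at 64.9, 76.1 and 80.8 FPKM in shRNA-NC and at 126, 124 and 120 in shRNA-*Ddx5* cells. The groups did not overlap in any of the 4 comparisons, which is also true of 53.5% of all tested genes for the knockdown in medium and of 61.6% with cytokines. *Amotl2* rose 1.24-fold with the knockdown in medium (log2 difference 0.31, SE 0.08, adjusted p = 0.0090 by limma) and 1.67-fold with cytokines (0.74, SE 0.08, adjusted p = 3.4e-05). The rise in medium did not pass after quantile normalization (0.09, adjusted p = 0.458 by limma) or in a voom fit of the fragments (0.21, adjusted p = 0.0684). The cytokines raised *Amotl2* 1.36-fold in shRNA-NC (0.43, SE 0.08, adjusted p = 0.0020 by limma) and 1.83-fold in shRNA-*Ddx5* cells (0.86, SE 0.08, adjusted p = 1.2e-05). The interaction of 0.43 passed narrowly (SE 0.11, adjusted p = 0.0440 by limma). This call was lost in 10 of 12 fits without 1 library (adjusted p up to 0.112) and was kept without replicate 1 or replicate 3 of shRNA-NC with cytokines.

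**Figure D3:**
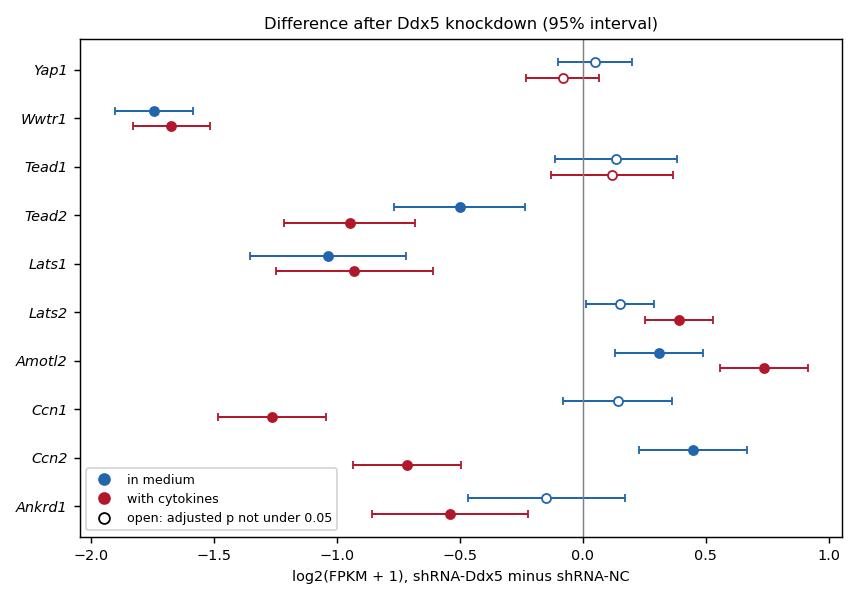
Knockdown difference in log2(FPKM + 1), shRNA-Ddx5 minus shRNA-NC (horizontal axis), of each of the 10 genes (vertical axis) in medium (blue) and with cytokines (red), with 95% intervals from limma over 3 libraries a group. Filled points passed the threshold. Wwtr1, Tead2 and Lats1 are below 0 in both media, whereas Ccn1 (0.14 and -1.26) and Ccn2 (0.45 and -0.71) lie on opposite sides of 0.

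The secreted matrix proteins of the CCN family, standard readouts of YAP and TAZ activity, had the 2 largest interactions of the 10 genes. *Ccn1* (gene 16007, chromosome 3, 145352726 to 145355740, minus strand) was at 35.6, 34.9 and 28.7 FPKM in shRNA-NC and at 40.8, 34.9 and 33.9 in shRNA-*Ddx5* cells in medium, where the groups overlapped. After stimulation, *Ccn1* was at 103, 110 and 97.5 FPKM in shRNA-NC, but only at 42.0, 44.5 and 40.8 in shRNA-*Ddx5* cells. No library outside the shRNA-NC group with cytokines was above 44.5 FPKM. The cytokines thus raised *Ccn1* 3.13-fold in shRNA-NC cells (log2 difference 1.62, SE 0.10, adjusted p = 4.5e-07 by limma). In shRNA-*Ddx5* cells its level with cytokines was 1.16 times that in medium, and the difference did not pass (0.22, 95% interval -0.0039 to 0.44, adjusted p = 0.136 by limma), although the groups did not overlap. Without replicate 1 of shRNA-*Ddx5* in medium this difference was 0.30 and passed (adjusted p = 0.0473 by limma). The knockdown difference was 0.14 in medium (SE 0.10, adjusted p = 0.272 by limma) and -1.26 with cytokines (SE 0.10, adjusted p = 3.9e-06), where *Ccn1* was at 41.0% of the control. The interaction was -1.41 (SE 0.14, adjusted p = 2.4e-04 by limma).

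*Ccn2* (gene 14219, chromosome 10, 24471340 to 24474581, plus strand) was at 5.41, 4.96 and 4.13 FPKM in shRNA-NC and at 7.41, 6.82 and 6.56 in shRNA-*Ddx5* cells in medium. With cytokines present, *Ccn2* was at 10.6, 10.6 and 11.5 FPKM in shRNA-NC and at 7.05, 5.99 and 5.76 in shRNA-*Ddx5* cells. The shRNA-*Ddx5* libraries thus lay above the controls in medium and below them with cytokines. The knockdown raised *Ccn2* 1.43-fold in medium (log2 difference 0.45, SE 0.10, adjusted p = 0.0036 by limma) and lowered it to 57.5% of the control with cytokines (-0.71, SE 0.10, adjusted p = 1.8e-04), and the interaction was -1.16 (SE 0.14, adjusted p = 6.7e-04). The cytokines raised *Ccn2* 2.25-fold in shRNA-NC cells (1.03, SE 0.10, adjusted p = 1.9e-05 by limma). In shRNA-*Ddx5* cells the groups overlapped and the difference did not pass (-0.13, 95% interval -0.35 to 0.09, adjusted p = 0.375 by limma). *Ccn1* exceeded *Ccn2* in all 12 libraries, and *Ccn2* held between 9.55% and 16.0% of their summed FPKM in the 4 group means.

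*Ankrd1* (gene 107765, chromosome 19, 36089365 to 36097244, minus strand), which encodes a nuclear and sarcomeric ankyrin repeat protein, had the lowest mean level of the 10 genes in each group, although its order against *Ccn2* was not resolved in shRNA-NC cells in medium. It was at 4.43, 3.57 and 2.83 FPKM in shRNA-NC and at 3.03, 3.11 and 3.21 in shRNA-*Ddx5* cells in medium, where the groups overlapped. When cytokines were added, *Ankrd1* was at 5.50, 4.90 and 5.19 FPKM in shRNA-NC and at 4.01, 2.46 and 3.45 in shRNA-*Ddx5* cells. With cytokines *Ankrd1* was at 63.7% of the control (log2 difference -0.54, SE 0.15, adjusted p = 0.0104 by limma), while in medium the difference was -0.15 (95% interval -0.47 to 0.17, adjusted p = 0.426). The cytokines raised it 1.44-fold in shRNA-NC cells (0.44, SE 0.15, adjusted p = 0.0365 by limma), and the difference in shRNA-*Ddx5* cells was 0.05 (95% interval -0.27 to 0.37, adjusted p = 0.836). The interaction did not pass (-0.39, SE 0.21, adjusted p = 0.280 by limma). The cytokine call in shRNA-NC was lost without any of the 3 shRNA-NC libraries with cytokines, without replicate 2 or replicate 3 of shRNA-NC in medium, and without replicate 3 of shRNA-*Ddx5* in medium (adjusted p from 0.0507 to 0.125 by limma). The last of these lies outside that comparison and enters it only through the spread shared by all groups. With all libraries kept, the call was also lost with no filter on low values (adjusted p = 0.0842 by limma). The same held in a fit of the compared groups alone and in a voom fit (adjusted p = 0.0594 and 0.0806 by limma). In all, 9 of 18 alternatives lost it.

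**Figure D4:**
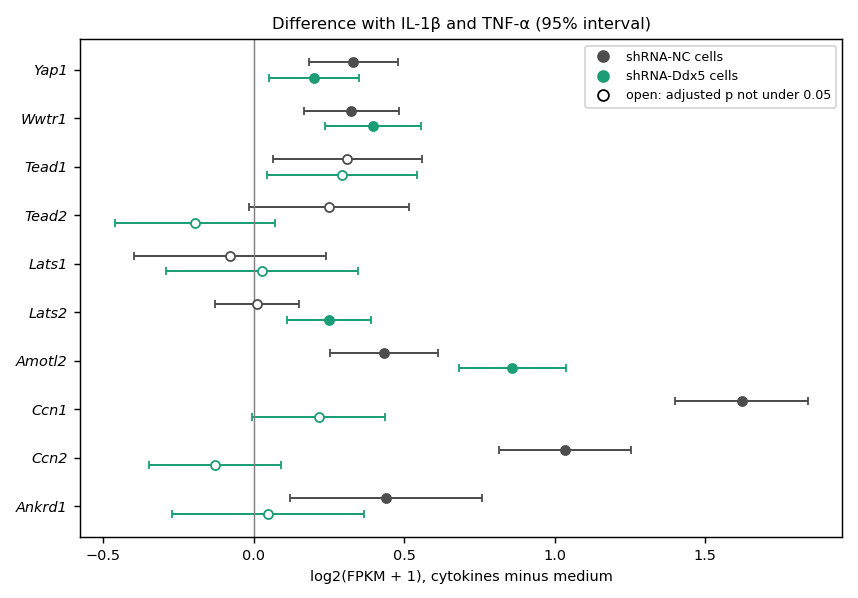
Cytokine difference in log2(FPKM + 1), cytokines minus medium (horizontal axis), of each of the 10 genes (vertical axis) in shRNA-NC cells (grey) and shRNA-Ddx5 cells (green), with 95% intervals from limma over 3 libraries a group. Filled points passed the threshold. Ccn1 and Ccn2 show differences of 1.62 and 1.03 in shRNA-NC cells beside 0.22 and -0.13 in shRNA-Ddx5 cells.

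In order of mean level, shRNA-NC cells in medium had *Tead2* and *Amotl2* highest, followed by *Yap1*, *Ccn1* and *Wwtr1*, *Lats1*, *Tead1* and *Lats2*, and *Ccn2* and *Ankrd1*. Libraries of *Tead2* and *Amotl2*, *Ccn1* and *Wwtr1*, *Tead1* and *Lats2*, and *Ccn2* and *Ankrd1* overlapped, so that the order within each of these pairs was not resolved. With cytokines *Ccn1* moved to the top in shRNA-NC cells at 103 FPKM, and its libraries did not overlap those of *Amotl2*, the next gene. In shRNA-*Ddx5* cells *Amotl2* was highest in both media, at 67.5 FPKM in medium and 123 with cytokines. *Wwtr1* dropped from the middle of the order in the control to the lower part, where its libraries overlapped those of *Lats1* in both media.

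The other genes of the pathway were taken from lists of known Hippo regulators, TEAD paralogues and cofactors, target genes, CCN family members and actin-linked genes. Of 19 tested Hippo regulators (of 20 listed), 3 rose and 5 fell with the knockdown in medium and 1 rose and 5 fell with cytokines. Of all tested genes, 25.3% rose and 21.7% fell in medium, and 23.5% rose and 22.1% fell with cytokines. The regulators' median differences were 0.07 and -0.19, beside 0.03 and 0.01 over all tested genes. *Mob1b*, a cofactor of the LATS kinases, fell in medium, from 16.0 to 8.84 FPKM (log2 difference -0.80), and under cytokines, from 14.3 to 9.31 FPKM (-0.58). *Amot*, the founding angiomotin, rose like its relative *Amotl2*, in medium from 12.9 to 26.3 FPKM (0.97) and under cytokines from 6.48 to 15.5 FPKM (1.15), although the cytokines lowered *Amot* in both lines (-0.90 and -0.72) and raised *Amotl2*. Their relative *Amotl1*, also on the list, went the other way. It fell in medium from 10.3 to 7.98 FPKM (-0.33), and its difference with cytokines did not pass (-0.19). *Taok1*, a kinase upstream of STK3 and STK4, fell from 21.5 to 10.2 FPKM in medium (-1.09), where its shRNA-*Ddx5* libraries varied widely, at 6.49, 15.7 and 8.37 FPKM. With cytokines *Taok1* was at 13.9 and 10.7 FPKM, a difference that did not pass (-0.36), and its interaction did not pass either (0.73, adjusted p = 0.195 by limma). *Wwc1*, which encodes the scaffold KIBRA, was at 2.88 and 3.24 FPKM in medium and fell from 4.63 to 2.41 FPKM with cytokines (-0.72, interaction -0.85). The other list member with an interaction was *Frmd6*, which encodes a scaffold of the upstream pathway and was singled out after its values were seen. *Frmd6* rose in medium, from 6.39 to 9.88 FPKM, and fell when cytokines were present, from 16.6 to 10.999 FPKM (interaction -1.11, adjusted p = 2.2e-04 by limma), and the cytokines raised it in shRNA-NC cells (1.25) while in shRNA-*Ddx5* cells the difference was 0.14 and did not pass.

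Of the other TEAD and VGLL genes 3 of 6 were tested. *Tead4* fell in medium, from 2.63 to 1.36 FPKM, and under cytokines, from 2.73 to 1.42 FPKM (-0.62 in both), *Vgll4*, a cofactor that competes with YAP for TEAD, rose from 5.97 to 8.45 and from 6.93 to 8.39 FPKM (0.44 and 0.24), and *Tead3* did not pass in either medium.

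Of 14 tested further YAP and TAZ target genes (of 17 listed), 6 rose and 1 fell in medium and 5 rose and 2 fell with cytokines, beside 25.3% and 21.7% of all tested genes in medium and 23.5% and 22.1% with cytokines. Their median differences were 0.37 and 0.20, beside 0.03 and 0.01 over all tested genes. *Ccn1*, *Ccn2* and *Ankrd1* all fell in the latter comparison. *Igfbp3*, an IGF-binding protein, rose in medium, from 106 to 336 FPKM (1.65), and under cytokines, from 36.1 to 286 FPKM (2.96, interaction 1.31). *F3*, the coagulation tissue factor, rose from 21.5 to 39.9 and from 9.37 to 28.8 FPKM (0.89 and 1.52). *Gadd45a*, a growth arrest gene, fell from 12.4 to 3.56 and from 67.3 to 29.5 FPKM (-1.55 and -1.16). *Tgfb2*, a TGF-β ligand, rose from 2.01 to 5.32 FPKM in medium (1.08) and was at 3.18 and 3.73 FPKM with cytokines (0.19, not past the threshold, interaction -0.90).

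Within the CCN family the members took different courses. *Ccn4* rose with the knockdown in medium, from 4.81 to 11.8 FPKM (1.14), and under cytokines, from 7.74 to 11.8 FPKM (0.55), with an interaction of -0.60 (adjusted p = 0.0173 by limma). *Ccn5* was at 12.7 and 10.8 FPKM in medium, a difference that did not pass (-0.22), and at 0.427 and 2.98 FPKM with cytokines (1.51), with an interaction of 1.73 (adjusted p = 8.1e-04 by limma). The cytokines lowered *Ccn5* in both lines (-3.30 and -1.57), whereas they raised *Ccn1* and *Ccn2* in shRNA-NC cells. *Ccn3* was between 1.01 and 1.70 FPKM in the 4 group means and did not pass in either knockdown comparison. The cytokines raised it in shRNA-*Ddx5* cells (0.44, adjusted p = 0.0426 by limma), and the difference in shRNA-NC cells did not pass (0.31, adjusted p = 0.114).

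*Ccn1* and *Ccn2* are also activated by serum response factor with the actin-sensing MRTF coactivators. Of 9 tested genes of this group, 4 rose and none fell in medium and 3 rose and none fell with cytokines, where 25.3% of all tested genes rose in medium and 23.5% with cytokines. Their median differences were 0.31 and 0.16, beside 0.03 and 0.01 over all tested genes. *Vcl* (vinculin) rose in both media (0.68 and 0.37). *Srf* itself rose in medium (0.47) and did not pass with cytokines (0.16), and *Mrtfa* did not pass in medium (0.31) and rose with cytokines (0.87). *Tpm1*, a tropomyosin, rose in medium (0.62) and did not pass with cytokines (-0.06), with an interaction of -0.68 (adjusted p = 0.0014 by limma). The sum of the fibroblast markers given above rose with the knockdown alongside this group, and the part of these markers in it was not tested.

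**Figure D5:**
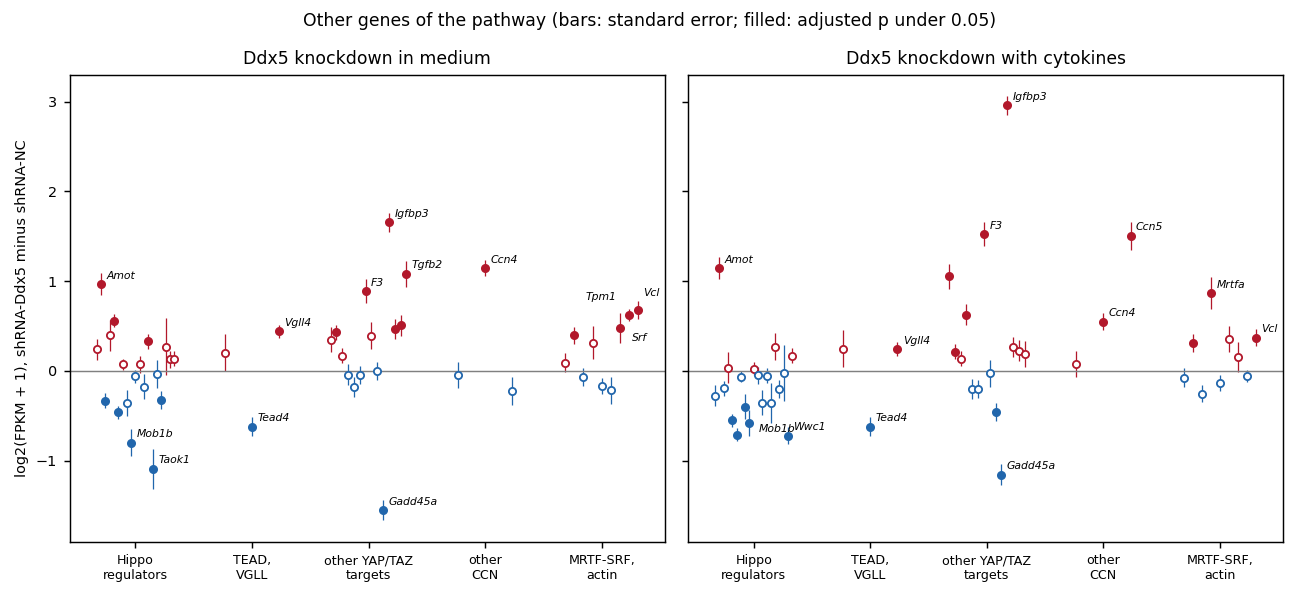
Knockdown difference in log2(FPKM + 1), shRNA-Ddx5 minus shRNA-NC (vertical axis), with standard errors, of the other tested genes of the pathway in 5 lists (horizontal axis), in medium (left) and with cytokines (right), over 3 libraries a group. Red points are above and blue points below 0, and filled points passed the threshold, with labels on the largest of each list. Igfbp3 (1.65 and 2.96) is highest and Gadd45a (-1.55 and -1.16) lowest in both media.

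The genes whose pattern over the 12 libraries was most like that of *Ccn1*, by the root mean square difference of log2 values centred on each gene's mean, were *Abtb2* (0.13), *Adam19* (0.16), *Rbm38* (0.18), *Afap1l2* (0.19) and *Epha2* (0.20), beside a median of 0.71 over all tested genes. *Epha2*, a receptor tyrosine kinase for ephrins, averaged 19.4 FPKM in shRNA-NC and 22.4 in shRNA-*Ddx5* cells in medium, and 52.1 and 18.9 FPKM with cytokines. For *Ccn2* the nearest genes were *Rin1* (0.11), *Kctd13* (0.15), *Zfand2a* (0.15), *Tubb3* (0.15) and *Slc7a5* (0.16), beside a median of 0.48. *Slc7a5*, an amino acid transporter, averaged 78.1 and 99.2 FPKM in medium and 134 and 102 with cytokines in shRNA-NC and shRNA-*Ddx5* cells. *Ankrd1* lay nearest to *Rala* (0.13), *Cacul1* (0.14), *Dnaja1* (0.15), *Irx3* (0.15) and *Lhx2* (0.15), beside a median of 0.39.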

How the data were processed

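The 12 RNA-seq libraries of ATDC5 cells, 3 in each of 4 groups, were analysed with groups taken from the labels and doses from the methods of the study. The authors purified poly-A RNA from 1 µg, read 150 nt from both ends and counted fragments on genes, and they deposited FPKM for 46731 genes. Per the labels, HISAT2 2.0.5, featureCounts 1.5.0-p3, DESeq2 1.20.0 and GATK 3.7 were used. The labels name the build mm10, whereas the coordinates of the table carry GRCm39 chromosome accessions, and gene positions are given on GRCm39. The study describes the replicates as independent experiments. Multiplied by gene length, deposited FPKM values were whole multiples of 1 step per library (tolerance 0.01), which gave the fragments behind them. The denominators were 0.957 to 1.08 times the sum of these fragments and differed by group. In medium they were 1.06 to 1.08 times the sum in shRNA-NC and 0.986 to 1.02 in shRNA-*Ddx5* cells. With cytokines they were 0.973 to 1.04 and 0.957 to 0.982. A larger denominator gives a lower FPKM for the same fragments, and its part in the differences was not tested. Whether strand was used in counting is not given in the sources used here.

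Here, log2(FPKM + 1) of the 12368 genes with at least 1 FPKM in at least 3 libraries was fitted with limma 3.58.1 in R 4.3.3 (4 group means, eBayes with trend, Benjamini-Hochberg adjustment over all tested genes, threshold 0.05) after a test on simulated data. DESeq2 was not rerun, since the deposited unit is FPKM, and of the alternatives below only voom used the recovered fragments. Members and lists were chosen with earlier results of these data known. From each list, up to 4 genes past the threshold in a knockdown comparison with the largest absolute difference were named, with the 5 nearest patterns for *Ccn1*, *Ccn2* and *Ankrd1*, and *Tead3* and *Ccn3* complete their lists. *Frmd6* and *Amotl1* were named outside this rule. Alternatives were a pseudocount of 0.1, no filter, quantile normalization, a replicate block, the libraries of the groups compared alone, limma voom on the fragments (scaled by their sum) and each library left out in turn. Promoters came from RefSeq (GRCm38.p6), with entries for 8 of the 10 genes. They were not set against GRCm39 positions.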

Additional observations from a re-analysis of the deposited data

Results flagged for a closer look

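The knockdown difference was not the same in the 2 media for 3 of the 10 genes, by the interaction term of the limma fit with Benjamini-Hochberg adjustment. For *Ccn1* the knockdown difference in log2(FPKM + 1) was lower with cytokines than in medium by an interaction of -1.41 (adjusted p = 2.4e-04 by limma). The same term was -1.16 for *Ccn2* (adjusted p = 6.7e-04 by limma). Both calls were kept in all alternatives that give the term. For *Amotl2* it was 0.43 (adjusted p = 0.0440 by limma), and it was lost in 14 of 17 alternatives, so that a different knockdown response of *Amotl2* in the 2 media rests on a narrow margin. The groups of 3 libraries were too small for a test of single outlying libraries.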

How the results depend on the processing

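The knockdown calls of *Wwtr1*, *Tead2* and *Lats1* in both media, and the calls of *Ccn1* and *Ccn2* for the knockdown with cytokines, the cytokines in shRNA-NC cells and the interaction kept their direction and their side of the threshold in all alternatives run. Quantile normalization reduced the number of the 10 genes called for the cytokines from 6 to 3 in shRNA-NC and from 4 to 2 in shRNA-*Ddx5* cells, the calls of *Yap1*, *Wwtr1* and *Amotl2* being lost in shRNA-NC. Leaving out each library in turn gave 2 to 5 of the 10 genes for the cytokines in shRNA-*Ddx5* cells, lowest without replicate 1 of shRNA-*Ddx5* with cytokines, and 559 to 1123 genes of all tested for the interaction, lowest without replicate 3 of shRNA-*Ddx5* with cytokines, beside 1016 in the full fit. It was also lower by more than 1.5 times without replicate 2 of shRNA-NC in medium (628), replicate 3 of shRNA-*Ddx5* in medium (600) or replicate 1 (610) or 2 (632) of shRNA-*Ddx5* with cytokines. The share of called genes that were higher was 53.8% for the knockdown in medium and 55.1% and 49.97% for the cytokines in shRNA-NC and shRNA-*Ddx5* cells. It was 42.0% and 41.9% for the first 2 of these by voom and 43.4% and 39.0% for the last 2 after quantile normalization.

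Signs changed only for differences that were not called. For the knockdown in medium these were *Yap1* (-0.13 after quantile normalization, -0.050 by voom and -0.0017 to 0.076 with a library left out) and *Ccn1* (-0.014 after quantile normalization). For the cytokines in shRNA-NC they were *Lats1* (-0.16 to 0.0075 with a library left out) and *Lats2* (-0.045 after quantile normalization, -0.070 by voom and -0.0083 to 0.042 with a library left out). For the cytokines in shRNA-*Ddx5* cells they were *Ankrd1* (-0.068 to 0.20 with a library left out) and *Lats1* (-0.0063 after quantile normalization, -0.013 by voom and -0.13 to 0.15 with a library left out). For the interaction they were *Tead1* (0.020 by voom and -0.15 to 0.083 with a library left out) and *Lats1* (-0.054 to 0.23 with a library left out). The causes were not tested.

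With the replicate number as a block, 5, 8, 6, 3 and 2 of the 10 genes were called for the knockdown in medium and with cytokines, the cytokines in shRNA-NC and shRNA-*Ddx5* cells and the interaction, where 5, 8, 6, 4 and 3 were called without it. Over all tested genes 5452, 5232, 3769, 2902 and 687 were called with the block. Deviations of same-numbered libraries from their group means correlated at -0.37 to 0.45, and 2, 1, 0 and 1 of 3 libraries correlated best with their own number. For the knockdown in medium the mean correlation was 0.27 for same-numbered and -0.14 for other libraries. The same-numbered mean was 0.0051, -0.18 and -0.087 in the other comparisons. With 3 libraries a group, these values cannot settle whether same-numbered libraries were paired.

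Depth limits *Ankrd1* most, with as few as 69 fragments in a library, and differences on the log2(FPKM + 1) scale understate changes at such levels. With 3 libraries a group, exact permutation tests cannot fall below 0.1.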
